A study of Mus musculus with 46 samples.

Results

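Oxidative phosphorylation genes encode the respiratory chain and ATP synthase of the mitochondrial inner membrane. They were taken as every gene whose symbol begins with Ndufa, Ndufb, Ndufc, Ndufs, Ndufv, Uqcr, Atp5 or Cox followed by a digit from 4 to 8, together with Sdha, Sdhb, Sdhc and Sdhd. Of 19938 genes with a probe set on the array, 89 met this rule. They comprise 36 subunits of complex I, 7 complex I assembly factors whose symbols share the prefix (Ndufaf), 4 subunits of complex II, 8 of complex III, 17 of complex IV and 17 of complex V. The rule used the symbol alone and no measured value. It left out the subunits whose names follow another pattern, and Ndufa4 and its relative Ndufa4l2 were kept with complex I by symbol, although the Ndufa4 protein is known to sit in complex IV. The mean intensity of 85 members lay above the background level of 161, which is the 95th percentile of 1027 olfactory receptor genes. Cox8b, the muscle form of a complex IV subunit, was at or below that level on every array of every group.

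Complexes I and II pass electrons from NADH and succinate to ubiquinone, complex III passes them on to cytochrome c, and complex IV hands them to oxygen. Complexes I, III and IV pump protons, and complex V uses the returning protons to make ATP. Several complex IV subunits are known to exist as a widely expressed form and a form confined to muscle, heart, lung or testis. Pluripotent stem cells are known to draw much of their ATP from glycolysis, and male germ cells to use testis forms of several mitochondrial proteins.

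Germline stem (GS) cells, which are cultured spermatogonial stem cells of mice, were compared on whole-transcript arrays with lines of pluripotent cells. There were 3 GS lines, 3 ES lines (R1, B6-6 and BRC1), 3 iPS lines made with retroviruses carrying c-myc, Klf4, Oct4 and Sox2, 2 lines of multipotent germline stem (mGS) cells that arose spontaneously from GS culture, and 3 lines for each of 4 induced routes from GS cells. All 4 routes shared a lentiviral knock-down of p53. To this Dnmt mGS added knock-down of Dnmt1, Dmrt mGS knock-down of Dmrt1, Sox2 mGS delivery of Sox2, and Oct4 mGS delivery of Oct4. Every line but the ES lines was DBA/2 and carried a GFP transgene. R1 was a cross of 129 substrains, B6-6 was C57BL/6J, and BRC1 was a cross of B6, DBA2 and 129, so strain and cell type cannot be told apart for ES cells. GS cells grew in a StemPro-34 medium with GDNF, basic fibroblast growth factor, glucose, pyruvate and lactate, whereas the pluripotent lines grew in DMEM with serum and LIF, all on mouse embryonic fibroblasts (MEF). Medium and cell state therefore cannot be told apart in any comparison with GS cells. Each line was arrayed from 2 cultures, which were averaged, so n counts lines, and the number of lines limits the precision.

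The 46 arrays had median intensities between 215.4 and 264.8. The cell types matched their markers by sum: the summed intensity of 9 measured spermatogonial markers was 48098 to 57861 in GS lines and 4635 to 6781 in the pluripotent lines, and that of 10 pluripotency markers 1786 to 4100 and 17057 to 41370. Not every marker did so. Sall4, a listed spermatogonial marker, averaged 2096 in GS lines and 2924 to 4122 over the pluripotent groups. Of the 10 pluripotency markers, 7 in Sox2 mGS and 10 in Dnmt mGS were called higher than in GS cells. Some lines went against their labels or stood apart. Dnmt1 read 620 and 647 in Dnmt mGS 1 and 3 but 2752 in the line labelled Dnmt mGS 2, against 2904 to 3132 in GS lines. Dmrt1 was 191 to 554 in Dmrt mGS lines and 3379 to 4220 in GS lines, but it was low in all pluripotent lines (151 to 665). The Sox2 probe set read 1253 to 1303 in Sox2 mGS lines, below the 4071 to 4627 of iPS lines; what part of the transcript that probe set covers, and so whether it reads the delivered copy, is unknown. GS 1 held more Pou5f1 (1000) and Sox2 (1807) than GS 2 and GS 3 (365 and 381, 331 and 293). The summed intensity of 17 feeder and fibroblast genes was 40381 to 53300 in Sox2 mGS lines and 25999 to 42691 in Oct4 mGS lines, against 15098 to 16121 in iPS lines. In bulk RNA, fewer cells of a type and less RNA per cell cannot be told apart.

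Promoters of 73 of the 89 members were found by symbol among RefSeq windows of 300 bases (250 before to 50 after the start, GRCm38.p6). Nuclear respiratory factor 1 (NRF1) is a known activator of respiratory genes, and the core of its site was searched as the 10 letters in capitals in the first pair of sequences shown, which read the same on both strands. It was present in 7 of these members (9.59%) and in 1.07% of 27025 genes. The core of the ETS sites bound by GABP, CCGGAAGT on either strand, was present in 5 members (6.85%) and in 4.31% of all genes. These windows also differed in base composition. Each gene was given the highest CG dinucleotide count among its windows, and the median over genes was 20 for members and 8 for all genes. A match is only a run of letters. The 250 bases before the start are shown for a pair of members with the NRF1 core, in capitals: Cox6a1, the widely expressed liver form of a complex IV subunit, and Atp5g2, a gene for subunit c of ATP synthase. Both differed between groups in the results that follow.
Cox6a1 (chr5:115348959-115349208, minus strand): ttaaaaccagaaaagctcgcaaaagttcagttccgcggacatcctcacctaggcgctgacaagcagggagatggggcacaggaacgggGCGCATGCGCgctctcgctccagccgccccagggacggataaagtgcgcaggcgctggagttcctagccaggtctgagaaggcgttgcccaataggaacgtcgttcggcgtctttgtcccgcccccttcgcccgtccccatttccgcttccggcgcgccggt
Atp5g2 (chr15:102671048-102671297, minus strand): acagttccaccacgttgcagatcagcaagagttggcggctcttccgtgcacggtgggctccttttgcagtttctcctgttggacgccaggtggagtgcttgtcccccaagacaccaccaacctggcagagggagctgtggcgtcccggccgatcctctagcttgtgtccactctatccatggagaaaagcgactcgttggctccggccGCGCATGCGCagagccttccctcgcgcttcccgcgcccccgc

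The same stretch is shown for 3 tissue-restricted complex IV paralogs, whose levels are described below, with each CG dinucleotide in capitals. CG is the site that Dnmt1 keeps methylated. Cox7b2 and Cox6b2 are known as testis forms and Cox7a1 as the heart and muscle form. The printed stretches held 9, 8 and 4 CG dinucleotides respectively, against 26 for Cox6a1 and 19 for Atp5g2, and neither core.
Cox7b2 (chr5:71548206-71548455, minus strand): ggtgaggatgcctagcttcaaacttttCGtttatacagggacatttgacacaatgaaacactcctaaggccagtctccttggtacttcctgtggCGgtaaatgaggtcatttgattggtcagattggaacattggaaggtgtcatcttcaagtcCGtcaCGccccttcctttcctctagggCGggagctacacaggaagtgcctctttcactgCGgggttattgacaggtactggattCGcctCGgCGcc
Cox6b2 (chr7:4753095-4753344, minus strand): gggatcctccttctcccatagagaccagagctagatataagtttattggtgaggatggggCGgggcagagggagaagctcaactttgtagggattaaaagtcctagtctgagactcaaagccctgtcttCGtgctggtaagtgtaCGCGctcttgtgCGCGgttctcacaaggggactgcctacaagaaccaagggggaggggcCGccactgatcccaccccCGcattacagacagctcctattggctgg
Cox7a1 (chr7:30183921-30184170, plus strand): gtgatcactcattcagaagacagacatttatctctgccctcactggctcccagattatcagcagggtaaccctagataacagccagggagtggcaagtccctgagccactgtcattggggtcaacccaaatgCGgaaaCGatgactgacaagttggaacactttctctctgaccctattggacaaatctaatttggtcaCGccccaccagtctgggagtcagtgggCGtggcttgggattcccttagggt

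Comparing GS cells with the equal-weighted mean of the 7 pluripotent groups asks how the respiratory genes differ between the germline stem cell and its pluripotent counterparts. More members were lower than higher in GS cells: 45 of 89 were lower and 10 higher, and 34 did not pass (limma, adjusted p under 0.05 over all genes). Among all genes the split ran the other way, with 55.3% called in either direction, 33.9% higher and 21.5% lower in GS cells. The median log2 difference of the members was -0.22, and that of all genes was 0.095. For 31 members no GS line overlapped any of the 20 pluripotent lines, against 27.1% of all genes. Without GS 1, which stood apart in its pluripotency genes, 8 members were higher and 44 lower, and without the line labelled Dnmt mGS 2 the counts were 10 and 45.

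**Figure D1:**
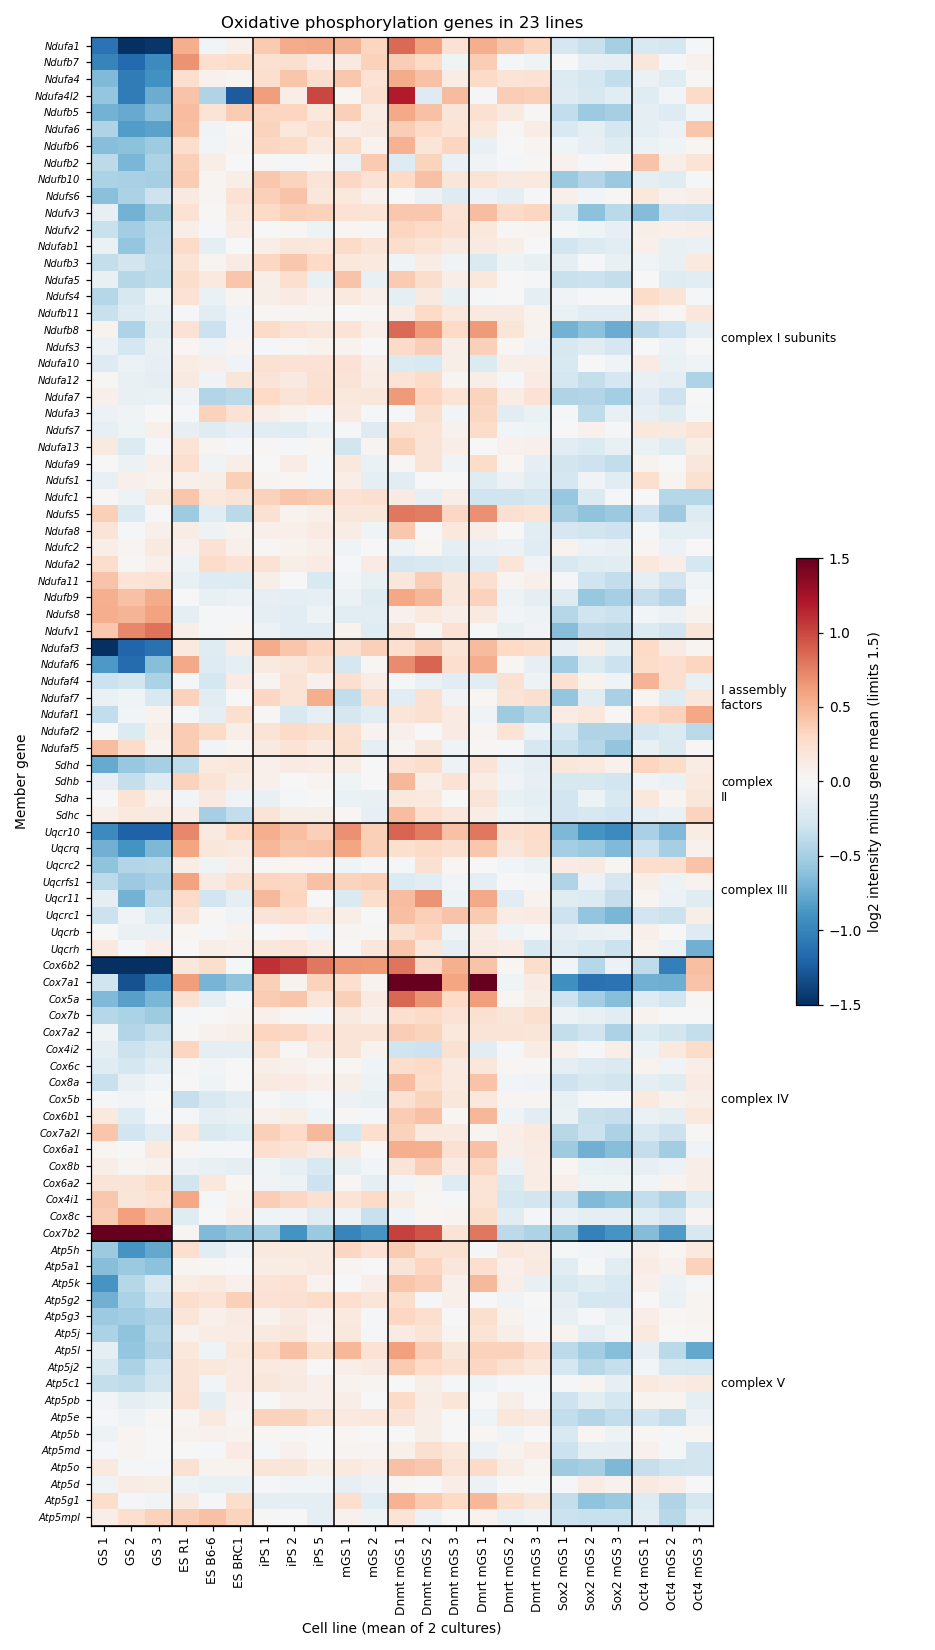
Log2 intensity of the 89 members (rows, by complex, ordered by the difference between GS cells and the pluripotent groups) in 23 lines (columns, mean of 2 cultures), as the difference from each gene's mean over lines, with colours ending at 1.5 in either direction. Of the 89 members, 19 to 29 are above their mean in the GS columns, 7 to 11 in the Sox2 mGS columns and 65 to 76 in the iPS and Dnmt mGS columns, and Cox7b2 is red in GS lines.

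Complex I, which oxidises NADH, had 18 of 36 subunits lower and 4 higher in GS cells. The accessory subunit Ndufa1 read 149, 99.8 and 117 in GS 1, 2 and 3, and 228 to 579 (median 401) in the pluripotent lines. All 3 GS values lay under the background level, so only a bound holds: Ndufa1 was at least 2.33-fold lower in GS cells (adjusted p 4.9e-09). Ndufb7, another accessory subunit, was 276, 246 and 285 in GS lines against 499 to 878 elsewhere, a log2 difference of -1.20 ± 0.10 (SE, adjusted p 1.5e-08). Neither gene had a GS line within the pluripotent range. Ndufa4 was also lower (-1.01 ± 0.085, adjusted p 1.3e-08), with 556 to 725 in GS lines and 889 to 1690 in the pluripotent lines.

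The 4 complex I subunits higher in GS cells were Ndufv1, Ndufs8, Ndufb9 and Ndufa11. Ndufv1 carries the flavin that accepts electrons from NADH. It read 2526, 3123 and 3335 in GS lines and 1226 to 2212 in the pluripotent lines (0.74 ± 0.090, adjusted p 1.4e-06). Ndufs8, an iron-sulfur subunit further along the same electron path, read 4146, 4073 and 4338 in GS lines and 2112 to 3159 elsewhere (0.64 ± 0.052, adjusted p 8.2e-09). Both were higher in every GS line than in every pluripotent line. Ndufb9 was higher on average (0.59 ± 0.10, adjusted p 9e-05), but Dnmt mGS 1, at 4758, exceeded all GS lines, whose highest value was 4668. Of the complex I assembly factors, Ndufaf3 was 266, 412 and 431 in GS lines and 824 to 1376 in the pluripotent lines (-1.58 ± 0.11, adjusted p 1.2e-09). Ndufaf6, another assembly factor, was 141, 115 and 164 in GS lines and 178 to 469 elsewhere (adjusted p 2.3e-05). Its GS mean of 138 lay under background, so no fold is given.

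Complex III, which joins ubiquinol to cytochrome c, had 6 of 8 subunits lower in GS cells and none higher, with a median of -0.52. The small subunit Uqcr10 read 537, 447 and 448 in GS lines (-1.31 ± 0.15, adjusted p 6.1e-07). The pluripotent lines spanned 538 to 1911, and their lowest 3 values were those of Sox2 mGS lines. Uqcrq followed the same order, at 770 to 900 in GS lines and 906 to 2161 elsewhere (-0.89 ± 0.10, adjusted p 5.1e-07). The core protein Uqcrc2 (-0.56 ± 0.058) and the Rieske iron-sulfur protein Uqcrfs1 (-0.56 ± 0.082) were lower as well. In complex II, which also serves the citric acid cycle, the membrane anchor Sdhd read 686, 784 and 817 in GS lines and 890 to 1448 elsewhere (-0.70 ± 0.099, adjusted p 9.2e-06). Sdhb was lower by a smaller amount (-0.26 ± 0.077, adjusted p 0.0088), and its adjusted p was 0.099 without GS 2.

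Complex V had 9 of 17 subunits lower and 1 higher, with a median of -0.39. The peripheral stalk subunit Atp5h read 2424, 1905 and 2063 in GS lines and 3126 to 4601 in the pluripotent lines (-0.85 ± 0.076, adjusted p 3e-08). The catalytic-head subunit Atp5a1 read 3129, 3304 and 3167 in GS lines and 4369 to 6172 elsewhere (-0.69 ± 0.058, adjusted p 1.2e-08). Its partner in the head, Atp5b, averaged 7150 in GS lines and 6795 to 7533 over the pluripotent groups and was not called. The genes for the ring subunit c differed among themselves: Atp5g2 and Atp5g3 were both lower by 0.59, whereas Atp5g1 was not called.

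Complex IV, the oxygen-consuming enzyme, had 7 of 17 members lower and 4 higher, with a median of -0.02. Its highest and lowest differences were those of the paralogs Cox7b2 and Cox6b2. Cox5a, which is not one of the listed paralogs, was lower too. It read 1197, 1081 and 1181 in GS lines and 1214 to 3435 in the pluripotent lines. Cox7b2, the testis form of subunit 7b, read 515, 575 and 576 in GS lines and 51.9 to 213 (median 70.4) in the pluripotent lines (adjusted p 4.6e-09). The groups did not overlap. Most pluripotent values lay under background, so only a bound holds: Cox7b2 was at least 3.44-fold higher in GS cells than in ES, mGS, Sox2 mGS or Oct4 mGS lines. Its widely expressed counterpart Cox7b ran the opposite way, at 4380, 4267 and 4080 in GS lines and 5294 to 7243 elsewhere (-0.55 ± 0.043, adjusted p 4.2e-09). Another, dimmer probe set of Cox7b gave a larger log2 difference, -0.86, so the size depends on the probe set. Cox8c, the testis form of subunit 8, was 184, 217 and 196 in GS lines, all above the 112 to 170 of the pluripotent lines (adjusted p 1.1e-05). All 7 pluripotent group means of Cox8c, 123 to 145, lay under background, and the bound was at least 1.23-fold against ES cells.

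Cox6b2, known as the testis form of subunit 6b, did not follow Cox7b2 and Cox8c. It read 161, 170 and 180 in GS lines, about the background level, and 295 to 1286 (median 731) in the pluripotent lines (-2.11 ± 0.18, adjusted p 2.1e-08). No GS line reached any pluripotent line, and Cox6b2 had the lowest log2 difference of all members. Its widely expressed counterpart Cox6b1 was not called. Thus, of the 3 testis forms measured, 2 were higher and 1 was lower in GS cells. Cox7a1, the heart and muscle form of subunit 7a, was lower on average (-0.98 ± 0.37, adjusted p 0.035), but the ranges overlapped and the adjusted p was 0.19 without GS 2 and 0.12 without GS 3.

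By list, 3 of 8 measured tissue-restricted paralogs were higher and 4 lower in GS cells, and of 12 widely expressed genes listed beside them 1 was higher and 6 lower. Those 12 include Atp5g1, Atp5g2 and Atp5g3, which have no counterpart among the listed tissue-restricted paralogs. Atp5g2 and Atp5g3 are among the 6 lower. The other tissue-restricted members differed by smaller amounts. Cox6a2, a heart and muscle form, averaged 225 in GS lines and 174 to 198 over the pluripotent groups (0.25 ± 0.089, adjusted p 0.022), and its adjusted p was 0.054 without GS 2 and 0.11 without GS 3. Cox4i2, a lung form, averaged 386 in GS lines (-0.27 ± 0.11, adjusted p 0.039), with an adjusted p of 0.16 without GS 2, 0.11 without GS 3 and 0.054 without mGS 1. Its widely expressed counterpart Cox4i1 was higher in GS cells (0.29 ± 0.11, adjusted p 0.034) and lost that call without GS 1, GS 2 or GS 3 (adjusted p 0.17, 0.056 and 0.072). Ndufa4l2 lay under background in all 3 GS lines and was between 62.6 and 339 elsewhere (adjusted p 0.0071, or 0.057 without GS 2). The sums of 9 muscle and heart markers were 1821 to 1901 in GS lines and 2438 to 2973 in the pluripotent lines, and their part in the values of the muscle forms was not tested.

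**Figure D2:**
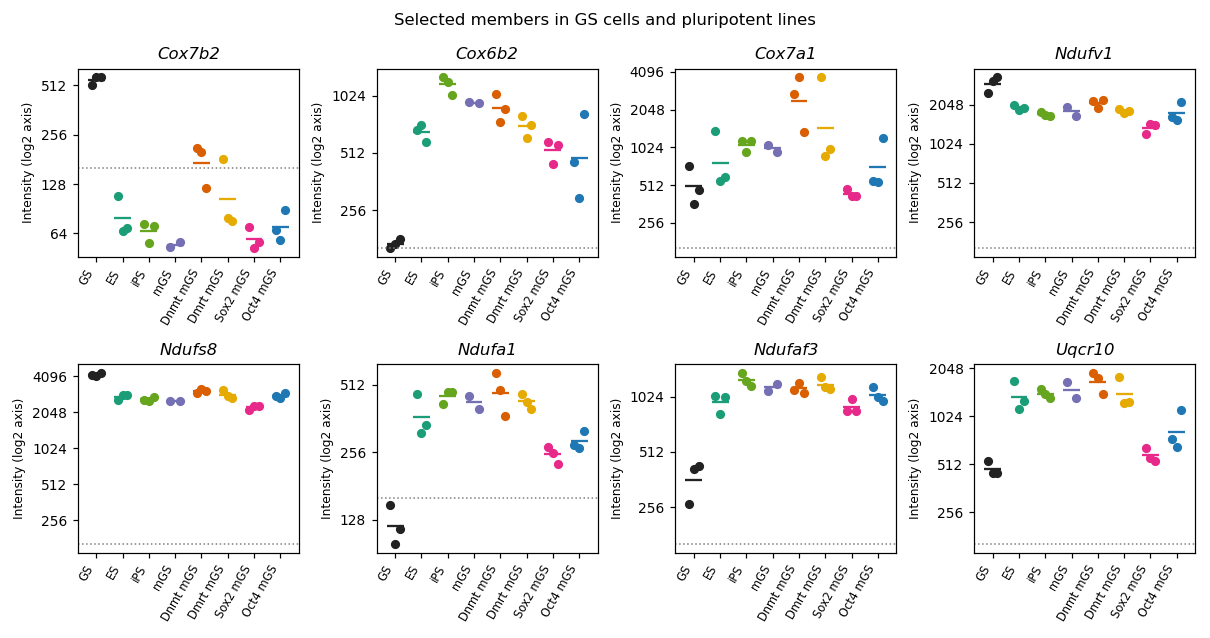
Intensity of 8 members (log2 axis) in each line, by group; points are lines (mean of 2 cultures), short bars are group means of log2 values, and the dotted line is the background level of 161. Cox7b2, Ndufv1 and Ndufs8 are higher in GS lines than in any pluripotent line, Cox6b2, Ndufa1, Ndufaf3 and Uqcr10 are lower, and Cox7a1 ranges widely among Dnmt mGS and Dmrt mGS lines.

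Each route from GS cells to a pluripotent line asks which respiratory genes change along that route. The routes share the GS lines as their baseline, so their values are given side by side. In spontaneous mGS lines 38 members were higher than in GS cells and 6 lower, while 43.1% of all genes were called. In Dnmt mGS lines 53 were higher and 5 lower (49.1% of all genes called), and in Dmrt mGS lines 41 and 9 (41.6%). Oct4 mGS lines had 34 higher and 14 lower (42.9%), and Sox2 mGS lines 22 higher and 23 lower (44%). Of 17 feeder genes, 13 were higher in Sox2 mGS and 6 in Oct4 mGS than in GS cells, and with the feeder level as a covariate, an alternative added after the data were seen, Sox2 mGS lines had 29 members higher and 16 lower. GS cells against ES cells gave 9 higher and 38 lower in GS (43.2%). Among all genes, more were lower than higher than in GS cells: 16.2% were higher and 26.9% lower in mGS, Dnmt mGS had 19.1% and 30%, Dmrt mGS 17.6% and 24.1%, Oct4 mGS 20.2% and 22.6%, and Sox2 mGS 19.4% and 24.6%. The members' lines did not overlap with GS lines for 66 members in mGS (64.7% of all genes), 64 in Dnmt mGS (58.4%), 56 in Dmrt mGS (48.3%), 54 in Oct4 mGS (49.5%) and 59 in Sox2 mGS (58.3%), and for 54 in ES (51.2%). From the spontaneous mGS lines to the Dnmt, Dmrt, Oct4 and Sox2 routes, in that order, the members' median log2 difference from GS was 0.23, 0.36, 0.27, 0.13 and -0.034, while that of all genes lay between -0.13 and -0.036. Without the line labelled Dnmt mGS 2, 49 members were higher and 7 lower in Dnmt mGS.

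Some members behaved alike in all routes. Ndufv1 averaged 2974 in GS lines and 1363 to 2098 in the 5 mGS types, and Ndufs8 averaged 4184 in GS lines and 2238 to 3061. Cox7b2 averaged 555 in GS lines and 54.6 to 173 in the mGS types, and Cox6b2 rose from 170 to between 481 and 941. Ndufaf3, the complex I assembly factor, was 362 in GS lines and 899 to 1188 in the mGS types by group mean. These 5 were called in every route against GS cells, in the direction given.

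Few members were called between iPS and ES lines or between spontaneous mGS and iPS lines. Against ES cells, iPS cells had 1 member higher and 1 lower (0.627% of all genes called, 0.291% higher and 0.336% lower). Ndufa7, a complex I subunit, averaged 2415 in iPS and 1654 in ES lines (0.55 ± 0.12, adjusted p 0.035), and Atp5mpl, a small subunit of ATP synthase, 941 and 1266 (-0.43 ± 0.092, adjusted p 0.038). Both calls were lost without any one of B6-6, BRC1, iPS 1, iPS 2 or iPS 5 (0 members called in each case), and 4 members were called without R1. Between mGS and iPS lines no member was called by limma, 4 had an unadjusted p under 0.05, and 0% of all genes were called. With 2 mGS lines and 3 iPS lines the median SE of a member's log2 difference was 0.12, and a missed threshold does not show that levels were alike.

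Sox2 mGS lines had lower respiratory transcripts than iPS lines throughout the chain. Of 89 members 49 were lower and none higher (limma, adjusted p under 0.05 over all genes), and the median log2 difference was -0.35, against 0.095 for all genes, of which 23.6% were called in either direction, 14.4% higher and 9.22% lower. Lower members numbered 22 of 36 in complex I, 4 of 7 assembly factors, 2 of 4 in complex II, 4 of 8 in complex III, 8 of 17 in complex IV and 9 of 17 in complex V. For 74 members the Sox2 mGS and iPS lines did not overlap, against 55.8% of all genes. The count was 32 without iPS 1 and 31 without Sox2 mGS 3, all of them lower.

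The lowest called differences were those of Uqcr10, Cox6b2 and Uqcrq. Uqcr10 read 650, 560 and 538 in Sox2 mGS lines and 1516, 1416 and 1331 in iPS lines (-1.29 ± 0.20, adjusted p 0.00046). Cox6b2 read 582, 447 and 565 against 1286, 1216 and 1040 (-1.16 ± 0.24, adjusted p 0.0034). Uqcrq read 1004, 972 and 906 against 2032, 1913 and 1921 (-1.03 ± 0.13, adjusted p 0.00012). The log2 difference of Cox7a1 was not called (-1.30 ± 0.49, adjusted p 0.064). Also in complex IV, Cox6a1, whose promoter is shown above, read 2009, 1759 and 1855 against 3462, 3341 and 3165 (-0.83 ± 0.12, adjusted p 0.00023). For each of these 5 members every Sox2 mGS line was below every iPS line. Cox4i1, the widely expressed form of a regulatory complex IV subunit, read 1610, 1269 and 1318 against 2598, 2490 and 2355 (-0.83 ± 0.15, adjusted p 0.0012).

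In complex I, Ndufb8 read 697, 745 and 681 in Sox2 mGS lines and 1386, 1316 and 1279 in iPS lines (-0.91 ± 0.17, adjusted p 0.0015), and Ndufb10 averaged 278 against 494 (-0.83 ± 0.090, adjusted p 4.2e-05). Both are accessory subunits of the membrane arm. In complex V, Atp5l, a membrane subunit, read 707, 647 and 597 against 1131, 1257 and 1100 (-0.84 ± 0.15, adjusted p 0.0013), and the stalk subunit Atp5o 1414, 1446 and 1285 against 2321, 2325 and 2192 (-0.72 ± 0.085, adjusted p 7.1e-05). Atp5b, the catalytic subunit, averaged 6795 in Sox2 mGS and 7335 in iPS lines and was not called (-0.11 ± 0.066, adjusted p 0.22).

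Oct4 mGS lines had fewer members lower. Against iPS lines 24 members were lower and 3 higher, while 13.8% of all genes were called, 10.4% higher and 3.43% lower. The median log2 difference was -0.16, against 0.12 for all genes, and for 49 members the lines did not overlap (38.5% of all genes). Cox6b2 led, at 460, 295 and 821 in Oct4 mGS lines and 1286, 1216 and 1040 in iPS lines (-1.29 ± 0.24, adjusted p 0.0047). Uqcrq (-0.70 ± 0.13, adjusted p 0.0047), Cox7a2 (-0.56 ± 0.088, adjusted p 0.0016) and Atp5e (-0.55 ± 0.080, adjusted p 0.0011) were also lower, each in every line. The number called was 16 without iPS 1, 13 without iPS 2, 18 without iPS 5, 17 without Oct4 mGS 1 and 14 without Oct4 mGS 2. The direct contrast of Sox2 mGS with Oct4 mGS, added after the values were seen, called no member by limma and 0.115% of all genes, so the order of these groups was not established for any single member.

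**Figure D3:**
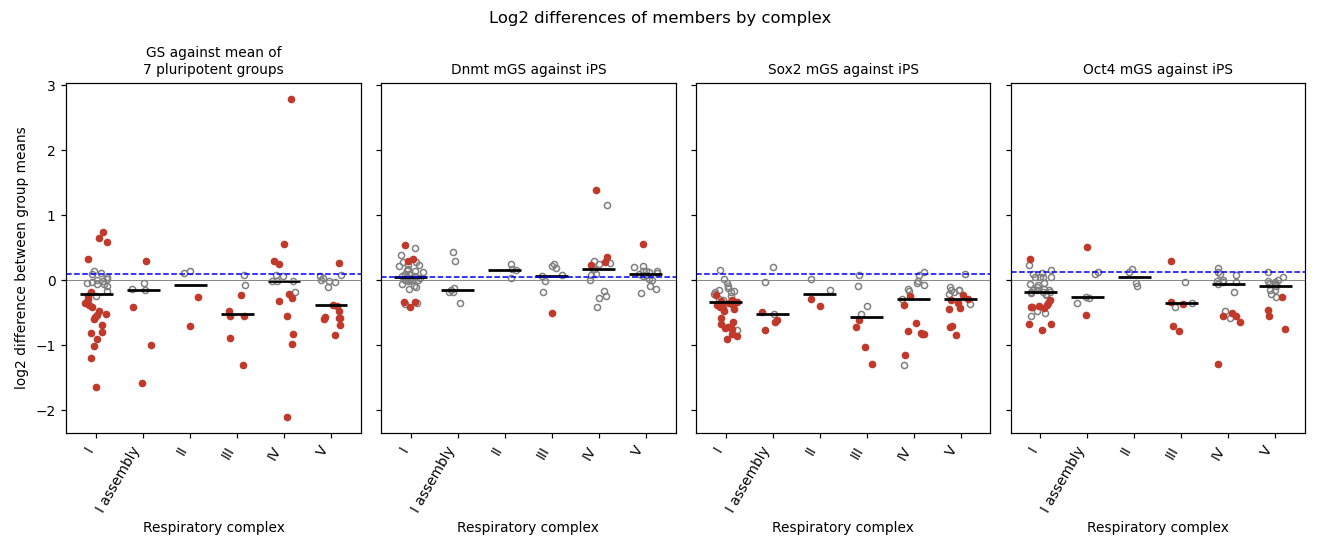
Log2 differences of the 89 members by complex (x axis) for GS against the mean of the 7 pluripotent groups and for Dnmt mGS, Sox2 mGS and Oct4 mGS against iPS lines. Filled red points passed adjusted p 0.05, open grey points did not, black bars are medians per complex, and the blue dashed line is the median of all genes (0.095, 0.046, 0.095 and 0.12 from left to right); no filled point lies above 0 for Sox2 mGS.

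Other measures differed in these comparisons as well. In Sox2 mGS against iPS, 11 of 17 feeder and fibroblast genes were higher and none lower, and 6 of 10 pluripotency markers were lower, the summed level of these markers being 17057 to 23823 in Sox2 mGS and 30503 to 39668 in iPS lines. In Oct4 mGS against iPS, 4 of 17 feeder genes were higher. By group mean, the feeder genes Lum (76.2), Pdgfra (128), Col5a2 (141) and Pdgfrb (160) lay under background in iPS lines, and in Sox2 mGS lines they averaged 763, 827, 788 and 1501. With the mean log2 level of the feeder genes as a covariate, an alternative added after the data were seen, 22 members were lower and 1 higher in Sox2 mGS, and 13 lower and 3 higher in Oct4 mGS. Within Dnmt mGS, the line with the highest feeder mean (Dnmt mGS 3, 10.63) had the lowest members' median deviation, 0.13 against 0.26 and 0.25. Within Dmrt mGS and ES, the line with the lowest feeder mean had the highest members' median: Dmrt mGS 1 (8.43) had 0.17 against 0.024 and 0.019, and ES R1 (8.76) had 0.14 against -0.021 and 0.053. Oct4 mGS 3, with the lowest feeder mean of its group (9.69), had the highest median, 0.02 against -0.041 and -0.097. Within iPS and Sox2 mGS, the line with the highest feeder mean had the lowest median. For iPS 5 (8.84) it was 0.092 against 0.14 and 0.13. For Sox2 mGS 3 (11.14) it was -0.25 against -0.23 and -0.21, the last being that of Sox2 mGS 2 (10.67). Of the mGS lines, mGS 2 (10.05) had 0.054 and mGS 1 (8.53) had 0.11. The GS lines ran the other way. GS 1, with their highest feeder mean (9.88), had their highest median, -0.12 against -0.24 and -0.15. In ES, Dmrt mGS and Oct4 mGS, the line with the highest feeder mean did not have the lowest median. These lines were BRC1 (10.42), Dmrt mGS 2 (10.22) and Oct4 mGS 1 (10.79). The part of the feeder level in the members' values was not tested.

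**Figure D4:**
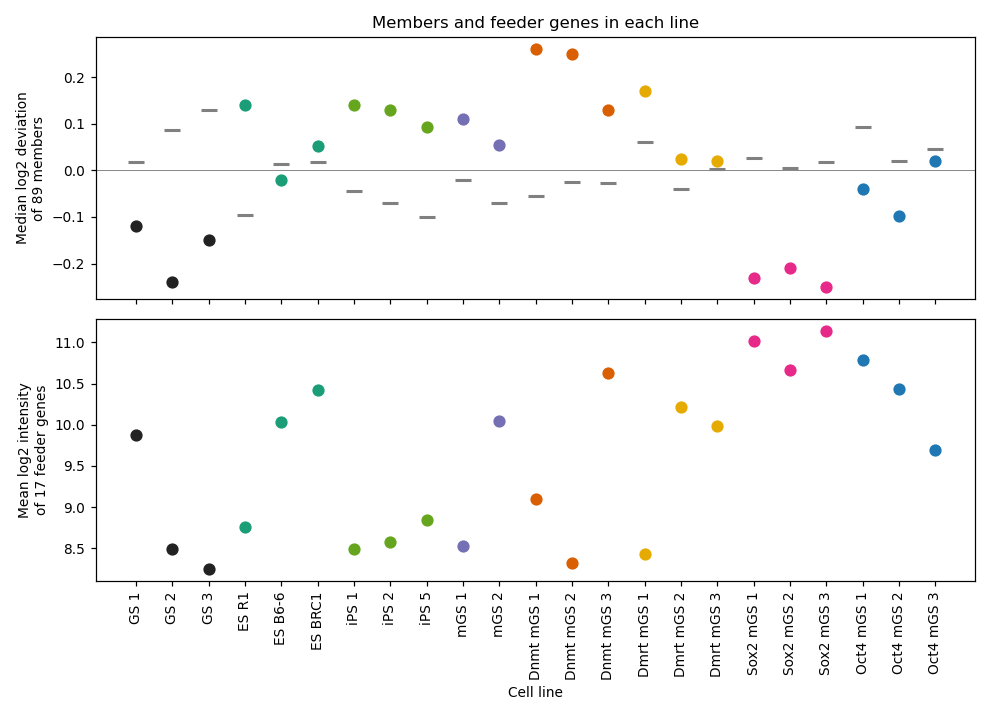
For each line, the median log2 deviation of the 89 members from their means over lines (upper panel, coloured points, with grey bars for the median of all genes) and the mean log2 intensity of 17 feeder and fibroblast genes (lower panel). The 3 Sox2 mGS lines have the lowest members' medians among pluripotent lines (-0.25 to -0.21) and the highest feeder means but for Oct4 mGS 1 (10.67 to 11.14).

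Between Dnmt mGS and iPS lines the direction depended on scaling. In Dnmt mGS 8 members were higher and 4 lower (6.87% of all genes called, 4.18% higher and 2.68% lower), with a median of 0.083, against 0.046 for all genes. With each array centred on its median, 2 members were higher and 5 lower. Atp5g1, a gene for subunit c, read 8751, 8018 and 7480 in Dnmt mGS lines and 5492, 5506 and 5542 in iPS lines (0.55 ± 0.12, adjusted p 0.013), but the adjusted p was 0.073 without Dnmt mGS 1 and 0.06 without iPS 2. Cox7b2 read 213, 201 and 121 in Dnmt mGS lines and 73.0, 56.2 and 71.1 in iPS lines, at least 1.07-fold higher (adjusted p 0.0097, or 0.058 without Dnmt mGS 1 and 0.06 without iPS 2). Cox8b was called higher too but lay under background in both groups. Uqcrfs1, the Rieske protein, was lower (-0.50 ± 0.11, adjusted p 0.012, or 0.064 without Dnmt mGS 1). The whole count fell to 1 without Dnmt mGS 1 and 2 without iPS 2, was 7 without iPS 1 or iPS 5, and was 6 without the line labelled Dnmt mGS 2. Against iPS lines, Dmrt mGS lines had 3 members lower and none higher (0.848% of all genes called, 0.492% lower). These were Ndufc1, Ndufb3 and Ndufs6, and the count was 0 without iPS 2, 2 without iPS 5 and 1 without iPS 1 or any one of the Dmrt mGS lines.

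Cox7a1 spanned a wide range among the lines of these routes. It read 2709, 3705 and 1361 in Dnmt mGS 1, 2 and 3 and 3719, 867 and 986 in Dmrt mGS 1, 2 and 3, against 936 to 1154 in iPS lines. Thus Dmrt mGS 1 and the line labelled Dnmt mGS 2 were alike in this gene, and the other Dmrt mGS lines lay at or below the iPS lines. Neither group was called against iPS lines for Cox7a1 (adjusted p 0.17 and 0.62), while both were called higher against GS cells, Dnmt mGS by 2.25 ± 0.49 (adjusted p 0.001) and Dmrt mGS by 1.55 ± 0.49 (adjusted p 0.017, or 0.11 without Dmrt mGS 1 and 0.076 without GS 2). Dmrt mGS 1 was also nearer to Dnmt mGS lines in Cox7b2 (181, against 79.7 and 75.9 in Dmrt mGS 2 and 3), in Cox6a1 (3939, against 3077 and 3146) and in its members' median (0.17, against 0.024 and 0.019). Not all members did so. Atp5h read 3445 in Dmrt mGS 1, further from the 4117 to 4601 of Dnmt mGS lines than Dmrt mGS 2 and 3 (3926 and 3834). The feeder mean of Dmrt mGS 1 was 8.43, against 10.22 and 9.98 in the other Dmrt mGS lines, and the part of that difference in these values was not tested. None of 9 muscle and heart markers was higher in Dnmt mGS than in iPS lines, and 2 were lower.

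Over the 7 pluripotent groups together, 59 of 89 members differed (moderated F test), against 29.4% of all genes. By complex these were 25 of 36 in complex I, 5 of 7 assembly factors, 2 of 4 in complex II, 5 of 8 in complex III, 13 of 17 in complex IV and 9 of 17 in complex V. Atp5o had the largest F (28.3, adjusted p 3.5e-05), followed by Ndufb10, Cox6a1, Cox7a2, Ndufb5, Atp5e, Uqcrq and Atp5j2. Among the pluripotent groups all 8 had their lowest mean in Sox2 mGS lines and their next lowest in Oct4 mGS lines. The count was 43 without Sox2 mGS 3 and 63 without Dmrt mGS 1, the lowest and highest with a line left out. The direct contrasts of routes, added after the values were seen, placed the widest gap between Dnmt mGS and Sox2 mGS. There 61 members were higher in Dnmt mGS and none lower, against 28.3% of all genes called and 13.6% higher. For Dmrt mGS against Sox2 mGS 33 were higher and none lower (8.1% of all genes called), for Dnmt mGS against Oct4 mGS 29 and 1 (15.2%), and for Dmrt mGS against Oct4 mGS 8 and 2 (1.45%). In spontaneous mGS lines 29 members were higher and none lower than in Sox2 mGS (7.72% of all genes called). Against Oct4 mGS these lines had 6 higher and 2 lower (1.88%), and against Dnmt mGS 1 and 2 (2.73%). No member was called between Dnmt mGS and Dmrt mGS lines, nor between mGS and Dmrt mGS lines, where 0.00502% and 0.0652% of all genes were.

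Some members changed in opposite directions from GS cells along different routes. Cox6a1 averaged 3015 in GS lines, 3911 in Dnmt mGS and 1871 in Sox2 mGS lines. Ndufb8 averaged 990 in GS lines, 1722 in Dnmt mGS and 707 in Sox2 mGS lines. Atp5o averaged 2094 in GS lines, 2614 in Dnmt mGS and 1380 in Sox2 mGS lines. For all 3 every Sox2 mGS line was below, and every Dnmt mGS line above, all GS lines.

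**Figure D5:**
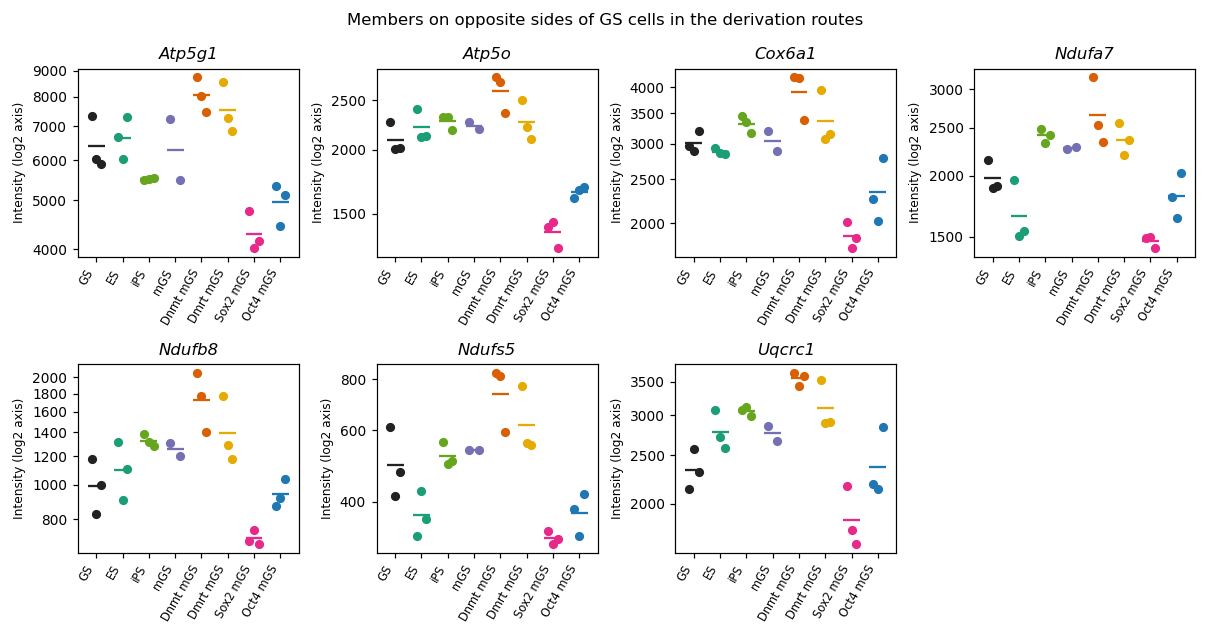
Intensity (log2 axis) of the 7 members called in opposite directions against GS cells in different routes, by line; points are lines (mean of 2 cultures) and bars are group means of log2 values. Sox2 mGS lines have the lowest group mean in each panel and Dnmt mGS lines the highest.

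Lists of related genes are given beside the shares of all genes called in GS cells against the pluripotent mean, 33.9% higher and 21.5% lower. Of 34 measured assembly factors outside the symbol pattern, 6 were higher and 17 lower in GS cells than in the mean of the pluripotent groups. Uqcc1, a complex III assembly factor, averaged 224 in GS lines and 476 to 671 over the pluripotent groups (-1.38 ± 0.081, adjusted p 1e-10), and Ttc19, which also serves complex III, 1296 against 474 to 575 (1.29 ± 0.11, adjusted p 9.4e-09). Of 20 genes of the citric acid cycle and pyruvate dehydrogenase, 2 were higher and 11 lower. Idh2, the mitochondrial NADP-dependent isocitrate dehydrogenase, averaged 124 in GS lines, under background, and 1134 to 2918 elsewhere (adjusted p 1.5e-11), whereas Mdh2, malate dehydrogenase, averaged 8181 and 4462 to 5563 (0.70 ± 0.055, adjusted p 5e-09).

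Among 12 carriers of electrons, phosphate and adenine nucleotides, 2 were higher and 7 lower in GS cells. The 2 higher genes were testis forms. Slc25a31, the germ cell ADP/ATP translocase, averaged 4853 in GS lines and 80.3 to 605 over the pluripotent groups (adjusted p 1.3e-11), and Cyct, testis cytochrome c, 449 and 72.3 to 291 (adjusted p 1.3e-05). The widely expressed translocase Slc25a5 was lower (2603 against 6620 to 7404, -1.42 ± 0.084, adjusted p 1.1e-10). Slc25a4, a further translocase gene, was lower too (1131 against 1965 to 2688, -1.0 ± 0.15, adjusted p 1.5e-05). Cycs, the somatic cytochrome c, was not called. Like Cox7b2, Slc25a31 had its highest pluripotent group mean in Dnmt mGS (605) and its next in Dmrt mGS (264). For Cox7b2, Dmrt mGS 1 read 181 but Dmrt mGS 2 and 3 read 79.7 and 75.9. The other testis forms named did not share this order. Among pluripotent groups Cyct was highest in ES (291), Cox6b2 in iPS (1176) and Cox8c, under background, in Dmrt mGS (145).

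Of 16 regulators of mitochondrial gene expression, 7 were higher and 4 lower in GS cells, beside 33.9% and 21.5% of all genes. Tfam, which packages mitochondrial DNA and takes part in its transcription, averaged 400 in GS lines and 633 to 828 elsewhere (-0.85 ± 0.090, adjusted p 2.7e-07). The accessory DNA polymerase subunit Polg2 was higher in GS cells (0.79 ± 0.13, adjusted p 7.1e-05). The mitochondrially encoded genes were listed under 26 names, 2 for each gene, and only COX2 and ND3 were measured. Both were higher in GS cells by small amounts (0.16 ± 0.052 and 0.22 ± 0.074, adjusted p 0.015 and 0.018). In Sox2 mGS against iPS, 14.4% of all genes were higher and 9.22% lower. Beside these shares, 11 of 34 assembly factors were lower and 1 higher, 5 of 20 citric acid cycle genes were lower and none higher, and 5 of 16 regulators were lower and 1 higher. The lower regulators included Nrf1 (-0.28 ± 0.097, adjusted p 0.044), the factor that binds the core shown above, and Gabpa (-0.46 ± 0.11, adjusted p 0.0082), the DNA-binding part of GABP. Nrf1 and Gabpa were picked from the 5 after their values were seen, and their part in the members' levels was not tested. Of 12 carriers 1 was lower in Sox2 mGS than in iPS lines, Cyc1 (-0.42 ± 0.098, adjusted p 0.0062), the heme-bearing subunit of complex III.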

How the data were processed

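The authors deposited normalized intensity values on a linear scale, per the file headers and the values, for 28856 probe sets on 46 Affymetrix arrays. How they were normalized was not given in the labels, and the submitters' processing notes name only the build mm9. Array values ran from 16 to 27420. Of the probe sets, 21789 carry 1 gene symbol, 1621 several and 5446 none in the annotation used, and the probe set with the highest mean stood for a gene (19938 genes). Values were taken to log2 and the 2 cultures of a line averaged. The cultures are labelled biological replicates, but nothing says how lines were separated, so p-values measure only the spread between these lines. One limma model (limma 3.58.1, R 4.3.3) of 8 groups over 23 lines gave each contrast, with 15 residual degrees of freedom and Benjamini-Hochberg adjustment over all genes at 0.05. "At least" folds set the brighter group's mean against the background level of 161 where the dimmer group lay under it. The script was tested on simulated data. Alternatives covered scaling, filtering, blocks, the spread estimate and leaving out each line.

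Named members are all those of the paralog lists, the called members with the 3 highest and 3 lowest differences of each complex, the 8 highest and lowest for GS cells, the 8 largest F values and those with opposite directions between routes. Of other lists, the 3 highest and 3 lowest called genes could be named, and Cycs, Cyc1, Nrf1, Gabpa, COX2, ND3, Atp5b and Atp5g1 were chosen after their values were seen. The members and lists were chosen with earlier results of these data known. Replicate numbers were checked for pairing. Culture differences of 253 pairs of lines correlated at -0.44 to 0.39 (median 0.0025) and clone deviations of 52 pairs at -0.64 to 0.79 (median 0.085). The numbers were not used to pair samples in the main fit. Deviations within groups of 2 or 3 lines cannot exclude a pairing. Promoter sequences are RefSeq's (GRCm38.p6), and 16 members had none.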

Additional observations from a re-analysis of the deposited data

Results flagged for a closer look

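Members called in opposite directions against GS cells by different routes were set against each other directly. Since they were chosen for those opposite calls, that the routes differ is all but fixed, and the log2 differences are given as a description with their standard errors.

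Between Dnmt mGS and Sox2 mGS, 7 members stood apart in this way, each higher in Dnmt mGS. Ndufb8 differed by 1.28 ± 0.17 on the log2 scale, being 0.80 above GS in Dnmt mGS and -0.49 from GS in Sox2 mGS. Ndufs5, another complex I subunit, differed by 1.18 ± 0.16, Cox6a1 by 1.06 ± 0.12 and Uqcrc1, a core protein of complex III, by 0.94 ± 0.12. Atp5o differed by 0.92 ± 0.085, Atp5g1 by 0.91 ± 0.12 and Ndufa7 by 0.86 ± 0.12.

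Between Dnmt mGS and Oct4 mGS, higher in the former, Cox6a1 differed by 0.74 ± 0.12, Atp5g1 by 0.70 ± 0.12 and Atp5o by 0.66 ± 0.085. Between Dmrt mGS and Sox2 mGS, also higher in the former, Ndufb8 differed by 0.98 ± 0.17 and Uqcrc1 by 0.74 ± 0.12.

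Some of the calls against GS cells behind these rested on single lines. Atp5g1 in Dnmt mGS had an adjusted p of 0.098 without GS 2, 0.11 without GS 3, 0.11 without Dnmt mGS 1 and 0.057 without the line labelled Dnmt mGS 2, and in Oct4 mGS 0.10 without GS 1 and 0.095 without Oct4 mGS 2. Cox6a1 in Dnmt mGS had 0.059 without Dnmt mGS 1 and 0.055 without the line labelled Dnmt mGS 2, and in Oct4 mGS 0.067 without GS 3, 0.053 without Oct4 mGS 1 and 0.10 without Oct4 mGS 2. Uqcrc1 in Sox2 mGS had 0.13 without GS 2, 0.060 without GS 3, 0.093 without Sox2 mGS 2 and 0.14 without Sox2 mGS 3. The feeder gene level also differed between these routes, as given with the line summary, and its part in the differences was not tested.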

How the results depend on the processing

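No called difference of a single member changed sign under the alternatives run, and of 259 called member values 183 kept their call under every setting. The balance of higher and lower counts did turn in places, as given here. In comparisons with GS cells the total counts stayed within 1.5 times under every setting, but lower members numbered 4 to 11 in Dmrt mGS (9 as reported) and 4 to 10 in mGS (6). For iPS against ES (2 members), centring each array on its median gave 1, a trend in the variance 1, the feeder covariate 1 and a fit of only the groups compared 0. For Dnmt mGS against iPS (12), these gave 7 with centring (2 higher, 5 lower), 23 with the feeder covariate and 4 with only the groups compared, and clone number as a replicate block gave 7. For Dmrt mGS against iPS (3), 46 arrays with line as a random block gave 5, culture number as a replicate block 5, the feeder covariate 6 and only the groups compared 0. For Sox2 mGS against iPS (49) the feeder covariate gave 23. For Oct4 mGS against iPS (27) it gave 16 and only the groups compared 10. The cause of these shifts was not tested. The replicate block moved no other count by over 1.5 times. Leaving out each line gave 0 to 4 members for iPS against ES, 1 to 14 for Dnmt mGS, 0 to 2 for Dmrt mGS, 31 to 38 for Sox2 mGS and 13 to 27 for Oct4 mGS against iPS. Quantile normalization gave 34 higher and 20 lower members in Oct4 mGS against GS, and the feeder covariate 29 and 16 in Sox2 mGS against GS, where the members' median moved from -0.034 to 0.041. Centring moved the median of all genes in Oct4 mGS against iPS from 0.12 to 0.0097. The feeder covariate and leaving out culture 1 of Oct4 mGS 1, whose array median was the highest, were chosen after seeing the data.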
